A study of Mus musculus with 24 samples.

Results

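Voltage-gated potassium channel subunits were examined in nuclei of the amygdala, a forebrain region of emotional learning, in 2 inbred mouse strains. The members were the rows of the RNA table whose symbol is that of an alpha subunit gene, Kcna to Kcnd, Kcnf to Kcnh, Kcnq, Kcns or Kcnv with a number, and that held at least 10 counts in each strain when all cell types were added up. Of 40 such symbols, 38 met this minimum, among 34039 genes in the table. Just inside the minimum lay Kcna10, with 26 counts in BL6 and 13 in DBA, and just outside it Kcng4, with 8 and 2, and Kcna7, with 6 and 3. The 38 members comprised 7 Kv1 genes (Kcna), 2 Kv2 (Kcnb), 4 Kv3 (Kcnc), 3 Kv4 (Kcnd), 5 Kv7 (Kcnq), 8 genes of the Kv10 to Kv12 subfamilies (Kcnh), and 9 silent subunits, namely 1 Kv5 (Kcnf), 3 Kv6 (Kcng), 2 Kv8 (Kcnv) and 3 Kv9 (Kcns).

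The study profiled single nuclei of BL6 and DBA mice by RNA sequencing and by ATAC-seq, which counts DNA accessible to a transposase. There were 2 libraries for each strain and assay, and each came from the pooled amygdala tissue of about 2 adult males aged 10 to 16 weeks. No treatment is stated for either strain. RNA nuclei were sorted to about 75% neuronal and 25% non-neuronal with an antibody to NeuN, a neuronal nuclear protein, and ATAC nuclei were sorted on a DNA dye without NeuN. In the tables, types named non-neuronal held 36.6% and 53.0% of RNA nuclei in BL6 and 45.9% and 30.1% in DBA, which differs from the sort and overlaps between the strains, and 1.81% to 2.97% of ATAC nuclei. The deposited tables hold counts summed by cell type and library, with the cell type names of the authors, where Exc stands for excitatory, Inh for inhibitory and NN for non-neuronal, followed by a marker gene or a cell class (ODC, oligodendrocytes; OPC, their precursors; MGC, microglia; VLMC, vascular leptomeningeal cells). Libraries are called 2 and 3 in each strain, as in the tables. Methylation libraries of 8 strains, BL6 and DBA among them, were not analysed here. RNA libraries held 30693629 to 66304405 counts from 2867 to 8079 nuclei, and ATAC libraries held 66535381 to 86927891 counts from 3694 to 6943 nuclei. Levels are given as CPM, the counts scaled to a total of 1000000 in each library and cell type or sum, and strain differences as log2 fold changes of DBA over BL6. Since a library is a pool, an error over libraries includes animals and handling together. The p-values of strain differences set the difference against the spread between libraries of the same strain, estimated with help from all genes.

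Voltage-gated potassium channels are tetramers that open when the membrane depolarises and let potassium leave the cell, which ends the action potential and sets how soon the next can follow. Kv1 channels hold axonal excitability down, Kv2 channels carry much of the delayed rectifier current of the soma, Kv3 channels open and close fast enough for high firing rates, and Kv4 channels carry the transient A-type current of dendrites. Kv7 channels make the M-current, which muscarinic receptors switch off, and the Kv10 to Kv12 group comprises the EAG, ERG and ELK channels. Kv5, Kv6, Kv8 and Kv9 subunits form no working channel alone and are called silent: they join Kv2 subunits and alter the current that results.

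Promoter sequences are shown for the members whose RNA differed between the strains in a sum over cell types (below) and for which RefSeq gave a promoter window, because accessibility was measured over these windows and is compared with the RNA. Each is a RefSeq window of build GRCm38.p6, 250 bases before to 50 bases after an annotated start, printed 5′ to 3′ on the gene's strand. Capitals mark a GC box, GGGCGG or its reverse complement CCGCCC, the DNA letters to which Sp-family factors are known to bind. Kcnf1 has its window at chr12:17176839-17177138 on the minus strand, Kcns3 has windows at chr12:11150324-11150623 and chr12:11150793-11151092 on the minus strand, Kcnh8 at chr17:52602459-52602758 on the plus strand, and Kcnd2 at chr6:21215096-21215395 on the plus strand.
Kcnf1: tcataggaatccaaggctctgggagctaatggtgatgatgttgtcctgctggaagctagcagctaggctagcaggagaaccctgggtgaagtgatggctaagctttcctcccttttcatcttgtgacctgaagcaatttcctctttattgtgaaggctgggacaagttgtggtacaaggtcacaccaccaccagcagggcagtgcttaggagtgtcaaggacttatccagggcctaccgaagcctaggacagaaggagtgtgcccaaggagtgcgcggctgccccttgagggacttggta
Kcns3, window at 11150324: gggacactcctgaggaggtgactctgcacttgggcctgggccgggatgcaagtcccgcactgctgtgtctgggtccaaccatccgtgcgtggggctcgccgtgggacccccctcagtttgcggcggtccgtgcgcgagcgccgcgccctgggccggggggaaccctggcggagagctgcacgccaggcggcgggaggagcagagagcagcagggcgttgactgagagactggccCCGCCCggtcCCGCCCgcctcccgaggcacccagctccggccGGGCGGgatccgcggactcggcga
Kcns3, window at 11150793: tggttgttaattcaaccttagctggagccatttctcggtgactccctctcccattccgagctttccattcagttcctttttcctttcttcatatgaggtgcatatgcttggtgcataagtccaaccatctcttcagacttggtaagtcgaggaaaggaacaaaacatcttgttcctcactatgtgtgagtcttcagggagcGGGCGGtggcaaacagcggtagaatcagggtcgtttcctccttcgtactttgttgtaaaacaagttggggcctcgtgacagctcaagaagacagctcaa
Kcnh8: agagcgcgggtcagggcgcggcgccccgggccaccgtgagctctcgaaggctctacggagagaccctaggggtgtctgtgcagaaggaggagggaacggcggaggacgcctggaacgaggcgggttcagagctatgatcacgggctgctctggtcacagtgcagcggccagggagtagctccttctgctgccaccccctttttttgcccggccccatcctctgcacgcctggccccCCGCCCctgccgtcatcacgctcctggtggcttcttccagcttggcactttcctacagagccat
Kcnd2: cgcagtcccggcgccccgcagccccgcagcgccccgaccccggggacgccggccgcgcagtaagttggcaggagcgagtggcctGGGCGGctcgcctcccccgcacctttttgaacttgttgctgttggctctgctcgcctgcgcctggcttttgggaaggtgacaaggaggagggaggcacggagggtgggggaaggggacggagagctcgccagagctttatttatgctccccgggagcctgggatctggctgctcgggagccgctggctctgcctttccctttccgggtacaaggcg
The Kcnf1 window has 53.0% G and C, 3 CpG and no GC box. The first Kcns3 window has 74.0% G and C, 32 CpG and 3 GC boxes, which begin 16 and 6 bases before the start and 26 bases after it, while the second has 47.0% G and C, 9 CpG and 1 GC box. Kcnh8 has 66.0% G and C with 1 GC box beginning 14 bases before the start, and Kcnd2 has 68.7% with 1 box beginning 166 bases before. Searched on both strands, these letters occur in 18 of the 28 windows of 23 members (64.3%), against 35.7% of all 32851 windows of the same length, and the median G and C content of the members' windows is 65.7% against 52.7%. A match is a description of the letters and not a bound site. The other members called in a sum, Kcna1, Kcng2 and Kcnv2, are named only.

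Levels varied by cell type, and 9 members reached at least 5 times their median type on 100 or more counts in their highest. Across the 20 cell types with enough nuclei, the highest type was inhibitory for 17 members, excitatory for 12, non-neuronal for 8 and the type named Neuronal-Aldoa-Cst3 for 1. Every excitatory value lay above every inhibitory value for 12 members, against 9.39% of the 22155 genes with the same minimum count, and the reverse held for 9, against 12.1%. For the other 17 the ranges overlapped. The cell types were made by clustering RNA, so levels by type are described and not tested, and means ± SD of levels by type are over the 4 libraries of both strains (n = 4).

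**Figure D1:**
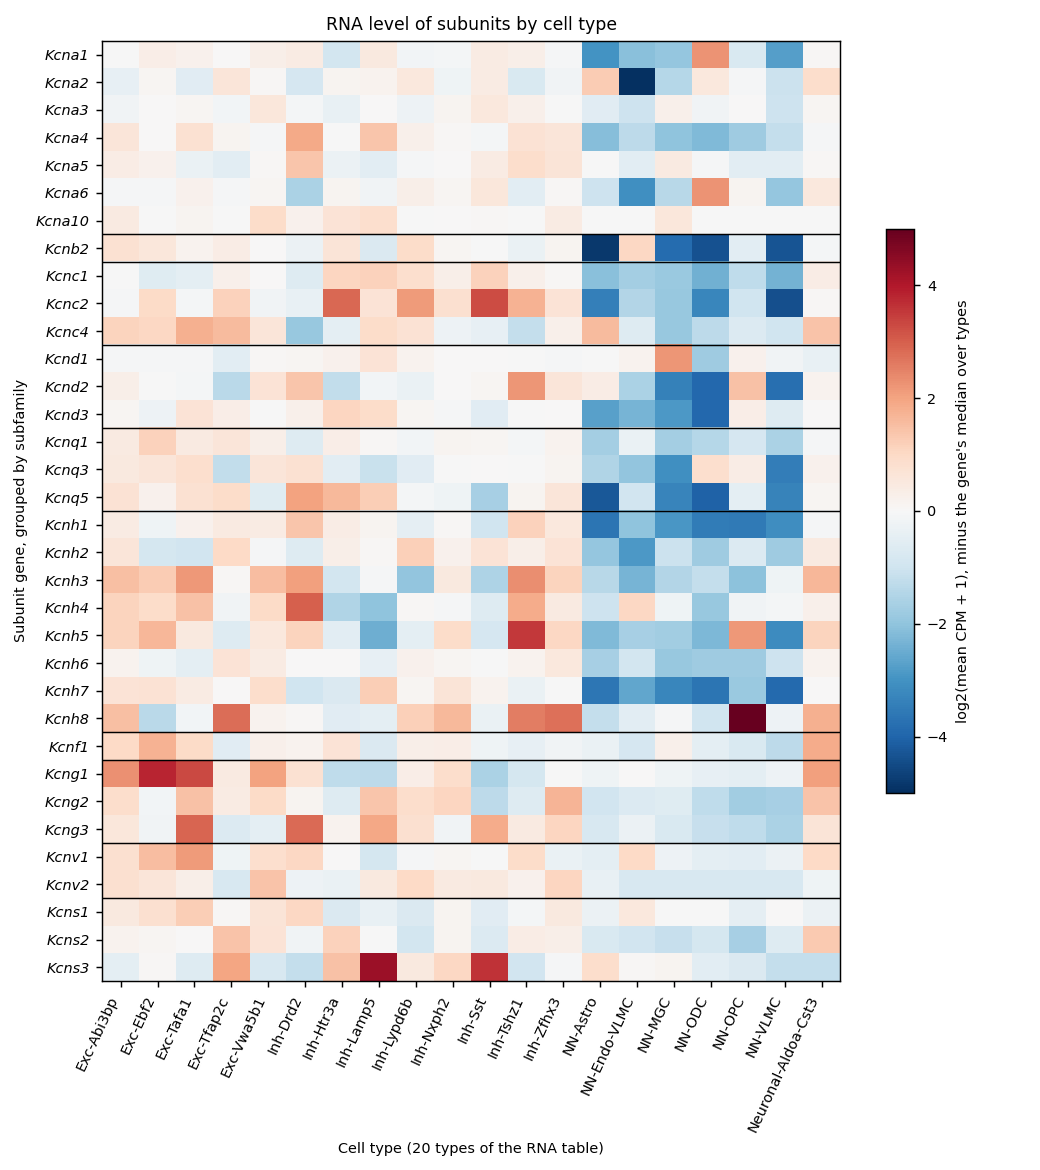
RNA level of the subunits whose own values are reported (rows, in subfamily order) in 20 cell types (columns), as log2 of the mean CPM plus 1, less the gene's own median over types, so colours compare types within a gene and not genes with each other. Kcnh8 in NN-OPC, Kcns3 in Inh-Lamp5 and Inh-Sst, Kcng1 in Exc-Ebf2 and Kcnh5 in Inh-Tshz1 stand far above their own medians.

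Of the 7 Kv1 genes, 2 were highest in oligodendrocytes and 1 in astrocytes. Kcna1, the classic axonal Kv1 subunit, reached 235 ± 31.2 CPM in NN-ODC, above Inh-Lamp5 at 70.6 ± 12.3 in every library, and was lowest in NN-Astro at 5.32. Kcna6 was likewise highest in NN-ODC, at 151 ± 16.1 against 45.8 ± 10.6 in Inh-Sst, again without overlap in any library. Kcna2, which pairs with Kcna1 in axons, was highest in NN-Astro at 74.1 ± 6.02, overlapping Neuronal-Aldoa-Cst3 at 57.4 ± 19.8. Kcna4, the Kv1 subunit with fast inactivation, was highest in Inh-Drd2 at 68.3 ± 29.7 and in Inh-Lamp5 at 48.1 ± 8.84, which overlapped. Inh-Drd2, also named for other subunits below, held 111 and 66 nuclei in BL6 libraries 2 and 3 and 47 and 12 in DBA libraries 2 and 3. Kcna3, Kcna5 and Kcna10 stayed near the detection limit, with 45, 9 and 19 counts in their highest types, and no order of types is read from them.

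Of the Kv2 genes, Kcnb2 spanned 19.0 CPM in NN-Astro to 1160 ± 299 in the nuclei named NN-Endo-VLMC, the latter overlapping Inh-Lypd6b at 1082 ± 215. NN-Endo-VLMC held 10 to 35 nuclei a library and its markers were mixed: Cldn5, Flt1 and Rgs5 of the endothelial and mural list were at 0 in all 4 libraries, while the summed astrocyte list reached 415 to 1193 CPM and the VLMC list 260 to 451.

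Among Kv3 genes, Kcnc2, which encodes the Kv3.2 subunit, was highest in inhibitory types. It reached 1278 ± 231 CPM in Inh-Sst, 975 ± 222 in Inh-Htr3a, 586 ± 102 in Inh-Lypd6b and 442 ± 53.4 in Inh-Tshz1, against a median type of 132, and the first 2 types overlapped. Over the sums, Kcnc2 averaged 477 ± 86.3 in inhibitory and 131 ± 12.4 in excitatory nuclei, a ratio of 3.65. Kcnc1, encoding Kv3.1, was level among Inh-Lamp5 (156 ± 24.3), Inh-Sst (155 ± 20.2) and Inh-Htr3a (149 ± 20.0) and lowest in NN-ODC at 12.5. Kcnc4, encoding the inactivating Kv3.4, went the other way, with 19.5 ± 4.69 in excitatory and 5.90 ± 0.79 in inhibitory nuclei, and was highest in Exc-Tafa1 (27.2 ± 9.18), overlapping NN-Astro (23.7 ± 3.50).

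Of the Kv4 genes, Kcnd2, the main subunit of the A-type current, was highest in Inh-Tshz1, with 6948 and 6512 CPM in BL6 libraries 2 and 3 and 7030 and 6214 in DBA libraries 2 and 3. NN-OPC followed at 3979 ± 258 and Inh-Drd2 at 3820 ± 470, which overlapped each other and lay below Inh-Tshz1 in every library, and NN-ODC was lowest at 96.0. Kcnd1 was highest in NN-MGC at 29.4 ± 5.29, above Inh-Lamp5 at 9.68 ± 3.45 in every library, on 86 counts in microglia. Kcnd3 was highest in Inh-Htr3a (505 ± 45.8) and Inh-Lamp5 (445 ± 25.7), which overlapped.

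Among Kv7 genes, Kcnq3, which joins other Kv7 subunits such as Kcnq5 in M-channels, was as high in NN-ODC (774 ± 50.1 CPM) as in Exc-Tafa1 (767 ± 69.4), and lowest in NN-VLMC at 38.2. With counts pooled over the libraries, Kcnq3 was instead highest in Inh-Drd2, at 1.83 times its median type. Kcnq5 was highest in Inh-Drd2 at 2608 ± 769, overlapping Inh-Htr3a at 1979 ± 175, against 32.6 in NN-Astro. Kcnq1, the cardiac subunit, held 46 counts in its highest type, Exc-Ebf2 (14.4 ± 5.90).

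In the Kv10 to Kv12 group, Kcnh8, an ELK subunit, showed the widest contrast with its own median type, 55.0 times. Its levels in NN-OPC were 379 and 355 CPM in the BL6 libraries and 398 and 365 in the DBA libraries, above every other type in each library. The next types, Exc-Tfap2c (53.2 ± 44.2), Inh-Zfhx3 (51.3 ± 15.8) and Inh-Tshz1 (44.5), overlapped one another. Kcnh5, an EAG subunit, was highest in Inh-Tshz1, with 563 and 488 CPM in BL6 and 549 and 502 in DBA, followed by NN-OPC, with 194 and 197 in BL6 and 210 and 223 in DBA. Inh-Tshz1 and NN-OPC were thus the 2 highest types for Kcnd2 and for Kcnh5, with Inh-Tshz1 above NN-OPC in every library. Kcnh4, an ELK subunit, was highest in Inh-Drd2 at 47.7 ± 12.3, above Inh-Tshz1 at 21.6 ± 2.27 in every library. Kcnh3, another ELK subunit, did not separate Inh-Tshz1 (60.0 ± 4.92), Exc-Tafa1 (53.8 ± 8.82) and Inh-Drd2 (48.9), and was 5.42 times its median type at most. Kcnh7, an ERG subunit, was highest in Inh-Lamp5 (1621 ± 119), above Exc-Vwa5b1 (1253 ± 102) in every library. Kcnh1 was highest in Inh-Drd2 (303 ± 91.6), overlapping Inh-Tshz1 (256 ± 22.6). Kcnh2 was highest in Inh-Lypd6b (15.5 ± 11.1) on 50 counts, and Kcnh6 had 8 counts in its highest type.

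Silent subunits included the sharpest contrasts between excitatory and inhibitory nuclei. Kcng1 averaged 30.3 ± 3.10 CPM in excitatory and 3.61 ± 1.61 in inhibitory nuclei, a ratio of 8.38, and was highest in Exc-Ebf2 (63.7 ± 10.7) and Exc-Tafa1 (44.3 ± 5.64), which overlapped. Kcns3, which modifies Kv2 currents, ran the opposite way, with 0.58 ± 0.44 in excitatory and 6.77 ± 2.89 in inhibitory nuclei, a ratio of 11.8. Its RNA lay mainly in Inh-Lamp5, at 30.0 to 53.0 in the 4 libraries on 94 counts, and Inh-Sst, at 13.8 to 44.7, and these ranges overlapped. Kcng3 was highest in Exc-Tafa1 (21.3 ± 1.36) and Inh-Drd2 (20.6 ± 6.17), overlapping, at 10.6 times its median type. Kcnv1 was highest in Exc-Tafa1 (22.4 ± 5.42), above Exc-Ebf2 (14.6 ± 2.54) in every library, and averaged 14.1 in excitatory against 5.47 in inhibitory nuclei. Kcng2 was highest in Inh-Zfhx3 (16.1 ± 3.12) and Exc-Tafa1 (13.3 ± 9.53), Kcnf1 in Neuronal-Aldoa-Cst3 (20.0 ± 9.65) and Exc-Ebf2 (18.3 ± 9.30), and both pairs overlapped. Kcns1, Kcns2 and Kcnv2 had 73, 9 and 79 counts in their highest types.

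**Figure D2:**
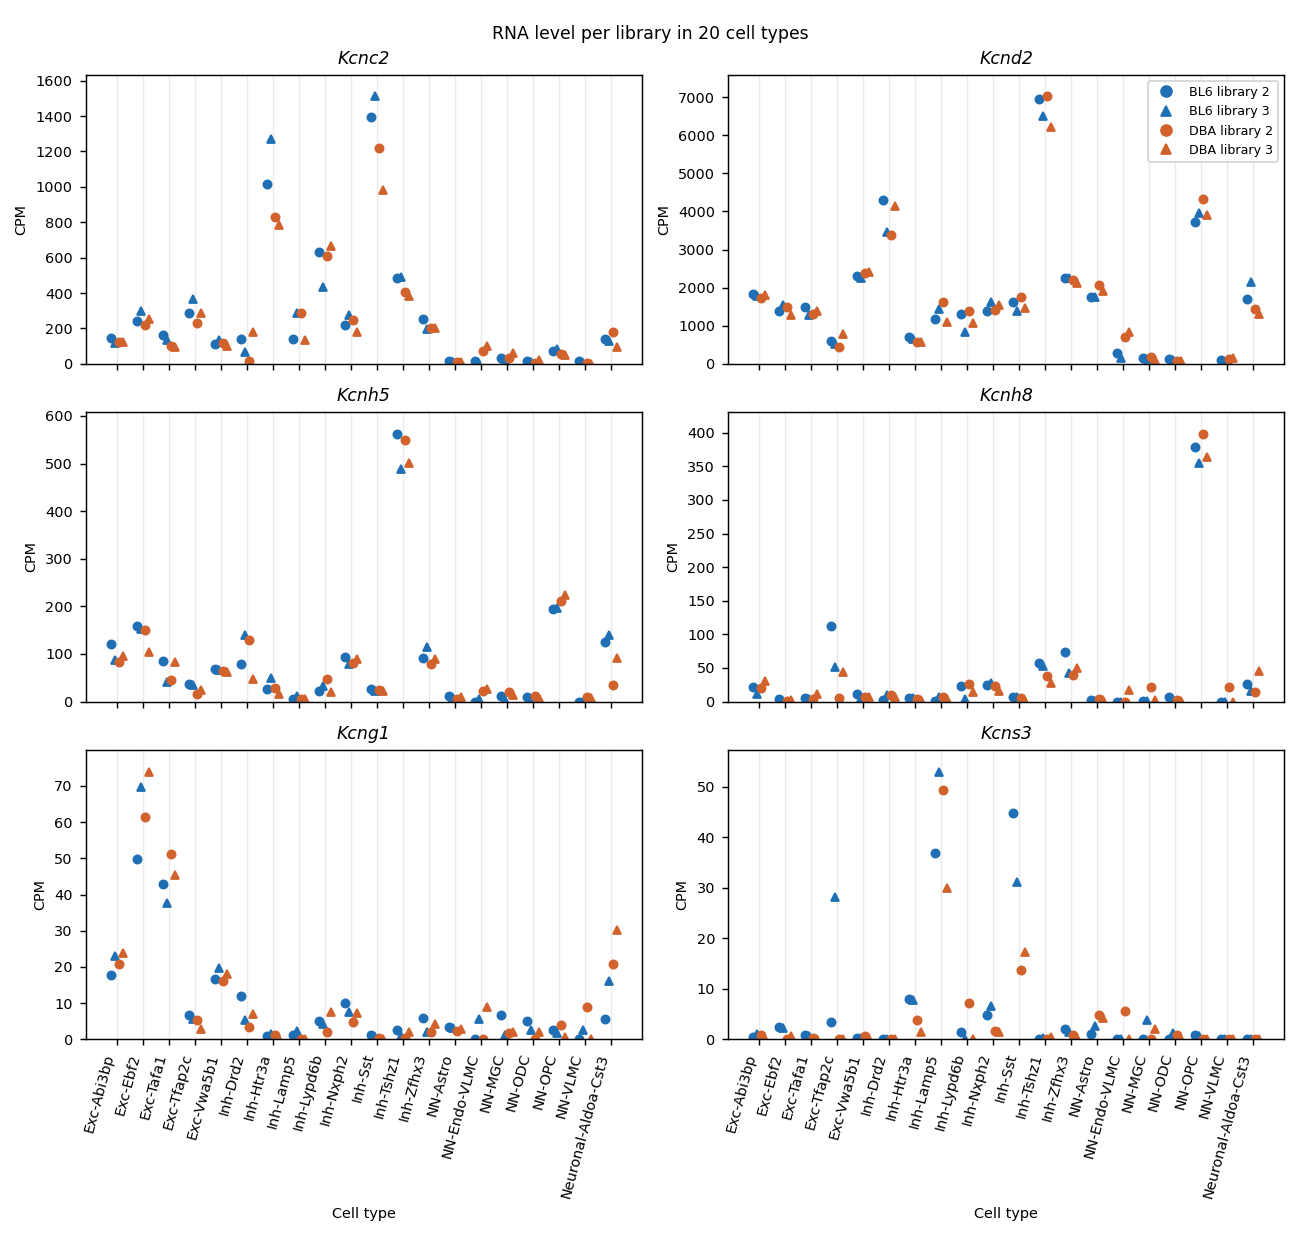
CPM per library (points; blue, BL6; orange, DBA; circles, library 2; triangles, library 3) in 20 cell types for Kcnc2, Kcnd2, Kcnh5, Kcnh8, Kcng1 and Kcns3. Kcnd2 and Kcnh5 peak in Inh-Tshz1 with NN-OPC second, Kcnh8 in NN-OPC, and for Kcns3 the BL6 points (44.7 and 31.1) lie above the DBA points (13.8 and 17.2) in Inh-Sst but not in Inh-Lamp5.

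Which subunits differed between BL6 and DBA was then asked in 4 sums of nuclei and in each cell type, with edgeR's quasi-likelihood test adjusted by the Benjamini-Hochberg method over all genes tested. In the 4 sums few members differed, and most that did were silent subunits with less RNA in DBA. This grouping by role was made with these values in view. In single types 15 members were called, and most of these were not silent subunits. Summed over all nuclei, 2 of 38 members were called, both lower in DBA (Kcnf1 and Kcng2), while 24.0% of all genes tested and 9.15% of the genes with 10 or more counts in each strain were called. In excitatory nuclei 4 of 36 tested members were called, Kcna1 higher and Kcnf1, Kcng2 and Kcnv2 lower, against 24.3% and 12.8% of genes. In inhibitory nuclei 3 of 37 were called, Kcnf1, Kcnh8 and Kcns3, all lower, against 23.9% and 11.9%. In non-neuronal nuclei 1 of 31 was called, Kcnd2, higher, against 20.0% and 11.1%. These shares lay at or below the background in each sum. The median log2 fold change of the members tested was -0.03, 0.00, -0.10 and -0.11 in the 4 sums in that order, against -0.01, -0.00, -0.00 and -0.01 for genes with counts in both strains. The strains' libraries did not overlap for 13, 15, 14 and 20 members in these sums, against 45.0%, 45.7%, 46.0% and 49.1% of genes. The table lists 2200 genes with 100 or more counts in DBA and none in BL6, and 96 the other way round. Whether counting differed between the strains at the members was not tested.

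**Figure D3:**
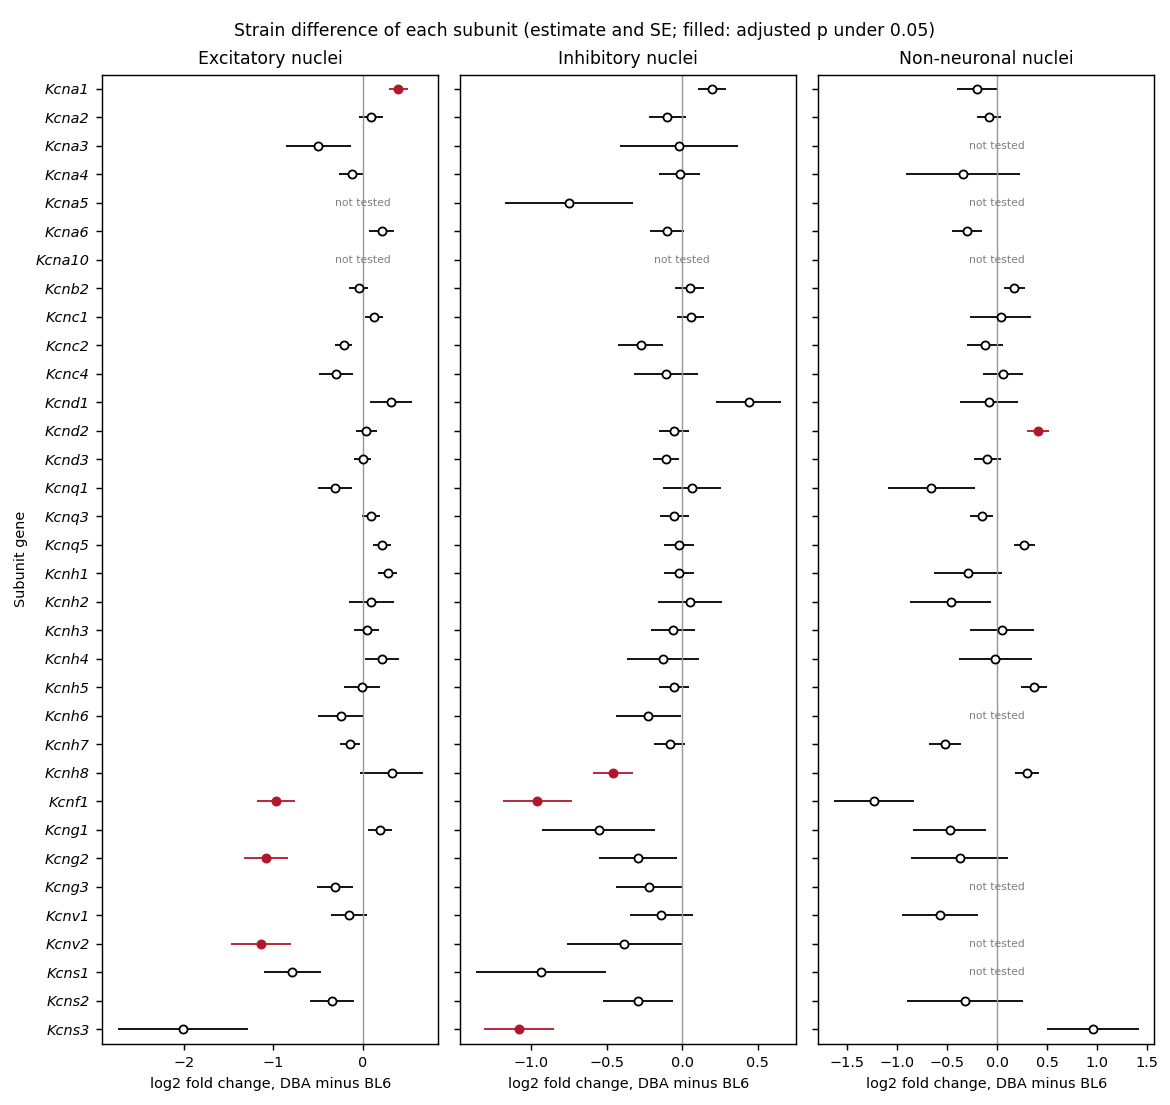
Log2 fold change of DBA over BL6 (points) with its standard error (bars) for each subunit whose own values are reported, in excitatory, inhibitory and non-neuronal nuclei, with filled points for adjusted p under 0.05. Kcnf1 lies at -0.97 in excitatory and -0.96 in inhibitory nuclei, Kcnd2 at 0.41 in non-neuronal nuclei, and most subunits lie near 0.

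Kcnf1, the silent subunit Kv5.1, was lower in DBA in every neuronal sum. In excitatory nuclei it measured 12.2 and 12.8 CPM in BL6 libraries 2 and 3 and 4.74 and 7.41 in DBA libraries 2 and 3. In inhibitory nuclei it measured 7.07 and 5.78 in BL6 and 2.87 and 3.69 in DBA. Every DBA library lay below every BL6 library, also in the sum over all nuclei and in non-neuronal nuclei. The log2 fold change was -0.97 (SE 0.21, edgeR adjusted p = 0.003) in excitatory, -0.96 (SE 0.23, adjusted p = 0.007) in inhibitory, -0.96 (SE 0.27, adjusted p = 0.035) in all and -1.23 (SE 0.40, adjusted p = 0.059) in non-neuronal nuclei. Among 8 cell types where Kcnf1 was tested, the estimate was negative and the strains did not overlap in all 8, and it was called in Exc-Vwa5b1 (7.62 and 9.70 against 3.01 and 2.84 CPM, -1.50), in Exc-Abi3bp (-0.95) and in Inh-Tshz1 (-1.42). The call in excitatory nuclei was kept under every alternative tried, and those in types were lost with DESeq2, in Exc-Abi3bp also without BL6 library 3, DBA library 2 or DBA library 3 and in Inh-Tshz1 also without BL6 library 2, DBA library 2 or DBA library 3. The call in all nuclei was lost without BL6 library 2 or without DBA library 2, with only genes counted in both strains and with a replicate block, and that in inhibitory nuclei was lost without BL6 library 2 or DBA library 2.

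Kcng2, the silent subunit Kv6.2, was lower in DBA in excitatory nuclei. It measured 10.8 and 18.4 CPM in BL6 and 6.49 and 6.71 in DBA, with no overlap but a wide gap between the BL6 libraries. The log2 fold change was -1.08 (SE 0.25, edgeR adjusted p = 0.005), and this call was kept under every alternative, none of which adjusted for the shares of cell types. In Exc-Tafa1 the values were 13.9 and 26.6 in BL6 and 6.86 and 5.93 in DBA (-1.59, adjusted p = 0.006), and this call was lost without DBA library 3. Exc-Tafa1 made up 29.1% and 46.0% of excitatory nuclei in BL6 and 33.9% and 21.5% in DBA. The part of this share in the excitatory sum was not tested. Inhibitory nuclei overlapped, with 10.6 and 5.58 in BL6 and 6.37 and 7.23 in DBA (-0.29, adjusted p = 0.545). In the sum over all nuclei, with 9.29 and 8.89 in BL6 and 5.10 and 6.26 in DBA, the adjusted p was 0.049 (-0.63, SE 0.19), and the call was lost without any one of the 4 libraries. That call was also lost with DESeq2, with RLE size factors, with a replicate block and with only genes counted in both strains.

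Kcns3, the silent subunit Kv9.3, was lower in DBA in inhibitory nuclei, at 9.05 and 9.31 CPM in BL6 and 5.32 and 3.41 in DBA (-1.08, SE 0.23, edgeR adjusted p = 0.003). By type, it measured 44.7 and 31.1 in BL6 and 13.8 and 17.2 in DBA in Inh-Sst (-1.31, SE 0.24, adjusted p = 0.0003), and 4.83 and 6.58 against 1.73 and 1.42 in Inh-Nxph2 (-1.77, SE 0.44, adjusted p = 0.006). In Inh-Lamp5, its other main type, the strains overlapped, with 36.8 and 53.0 in BL6 and 49.3 and 30.0 in DBA (-0.09, SE 0.36, adjusted p = 0.968). The difference between Inh-Sst and Inh-Lamp5 was not tested. Of inhibitory nuclei, Inh-Lamp5 made up 3.33% and 4.47% in BL6 and 3.08% and 2.20% in DBA. Inh-Sst made up 12.4% and 14.7% against 15.1% and 11.7%, and the part of these shares in the inhibitory sum was not tested. In astrocytes Kcns3 ran the other way on few counts, with 1.03 and 2.67 in BL6 and 4.80 and 4.30 in DBA (1.43, adjusted p = 0.048). The calls in the inhibitory sum and in Inh-Sst were kept under every alternative, that in Inh-Nxph2 was lost without BL6 library 2 or DBA library 3, and that in NN-Astro without BL6 library 2, DBA library 2 or DBA library 3. With DESeq2 the calls in Inh-Nxph2 and NN-Astro were lost too. Without BL6 library 3 the NN-Astro estimate was 2.25.

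Kcnv2, the silent subunit Kv8.2 known from photoreceptors, measured 2.43 and 3.26 CPM in BL6 and 1.36 and 1.16 in DBA in excitatory nuclei (-1.14, SE 0.34, edgeR adjusted p = 0.022). The strains did not overlap there, while inhibitory nuclei overlapped (-0.38, adjusted p = 0.597). In Exc-Vwa5b1, its highest type, the values were 4.26 and 6.35 against 1.67 and 2.41 (-1.16, adjusted p = 0.034). The first call was lost without BL6 library 3 or DBA library 3 and with DESeq2, and the second without any one of the 4 libraries and with DESeq2.

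Among the 9 silent subunits, a grouping by role made with these values in view, the estimate was negative for 8 of 9 in all nuclei, 8 of 9 in excitatory, 9 of 9 in inhibitory and 5 of the 6 tested in non-neuronal nuclei. Of these, 2, 3, 2 and 0 were called lower and none was called higher. Their median log2 fold changes were -0.63, -0.79, -0.38 and -0.42. For genes of low level, under 4 on the log2 CPM scale, with 10 or more counts in BL6 and in DBA, the medians were -0.05, -0.03, -0.02 and -0.07, and 5.63%, 8.08%, 6.93% and 5.89% were called lower. The estimate was negative for 56.6%, 53.2%, 52.9% and 56.8% of these genes. They were not matched to the silent subunits in level, and Kcng1, at 30.3 CPM in excitatory nuclei, lay above the limit there. The sum over all nuclei includes the other sums, so counts in the 4 sums are not independent. The other members tested, 29, 27, 28 and 25, had medians of 0.02, 0.04, -0.05 and -0.08, and 12, 10, 20 and 16 of them had a negative estimate. Kcng1 was the exception in excitatory and in all nuclei: the strains overlapped, with 26.2 and 30.8 CPM in BL6 and 33.7 and 30.4 in DBA in excitatory nuclei (0.20, SE 0.13, edgeR adjusted p = 0.386). Exc-Ebf2, where Kcng1 was highest, made up 3.54% and 4.20% of excitatory nuclei in BL6 and 7.85% and 8.39% in DBA, and the part of this share in the sum was not tested.

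**Figure D4:**
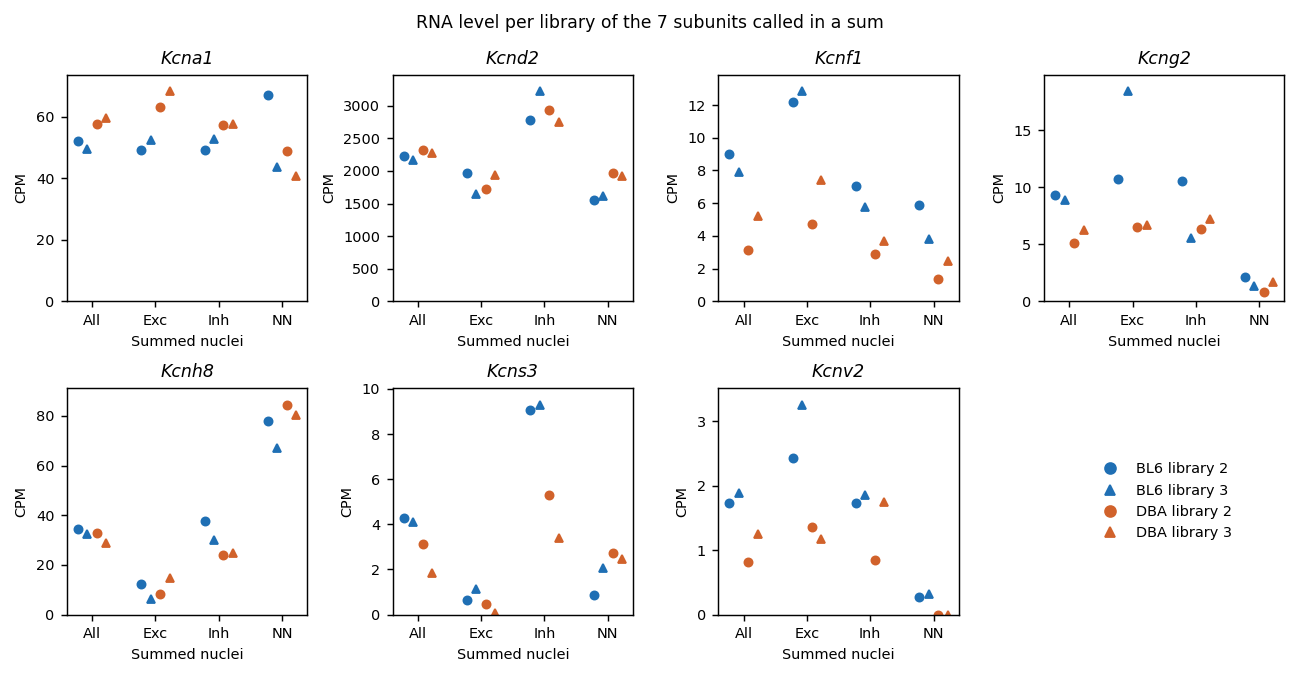
CPM per library (circles, library 2; triangles, library 3; blue, BL6; orange, DBA) of the 7 subunits called in a sum, in all, excitatory, inhibitory and non-neuronal nuclei. Kcnf1 shows both DBA points below both BL6 points in each of the 4 sums, and Kcnd2 shows both DBA points (1975 and 1920) above both BL6 points (1546 and 1623) in non-neuronal nuclei.

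Kcna1 was the 1 member called higher in DBA in a neuronal sum. In excitatory nuclei it measured 49.2 and 52.5 CPM in BL6 and 63.1 and 68.2 in DBA (0.40, SE 0.10, edgeR adjusted p = 0.010), without overlap. In inhibitory nuclei the strains also did not overlap, at 49.2 and 52.6 against 57.4 and 57.5, but the difference missed the threshold (0.20, SE 0.09, adjusted p = 0.181). By type it was called in Inh-Sst (49.7 and 49.7 against 73.4 and 89.4 CPM, 0.73, adjusted p = 0.0014), Exc-Tafa1 (44.6 and 51.4 against 62.8 and 74.0, 0.56) and Exc-Vwa5b1 (0.34). The 6 oligodendrocyte markers, summed beside it, stood at 118 and 116 CPM in BL6 and 84.8 and 83.3 in DBA in excitatory nuclei and at 96.9 and 82.0 against 47.5 and 41.5 in Inh-Sst, lower in both DBA libraries in each, and their part in the Kcna1 difference was not tested. The excitatory call was lost without DBA library 3, that in Exc-Tafa1 without BL6 library 2 or DBA library 3, and that in Exc-Vwa5b1 without BL6 library 2, DBA library 2 or DBA library 3 and with DESeq2. The call in Inh-Sst held without each library in turn and was lost with DESeq2.

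Kcnh8 was lower in DBA in inhibitory nuclei, at 37.7 and 30.0 CPM in BL6 and 24.1 and 25.0 in DBA (-0.46, SE 0.13, edgeR adjusted p = 0.023). In Inh-Tshz1 it measured 57.7 and 53.1 in BL6 and 38.8 and 28.3 in DBA (-0.72, SE 0.16, adjusted p = 0.0019). In NN-OPC, its highest type, the strains overlapped (0.13, SE 0.11, adjusted p = 0.588). The 5 precursor markers summed to 25.6 and 18.8 CPM in BL6 and 9.01 and 9.10 in DBA within Inh-Tshz1, against 2415 to 2893 in NN-OPC, and their part in the Kcnh8 difference was not tested. The inhibitory call was lost without BL6 library 2, DBA library 2 or DBA library 3 and with DESeq2, and that in Inh-Tshz1 without DBA library 3.

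Kcnd2 was higher in DBA in the non-neuronal sum, at 1546 and 1623 CPM in BL6 and 1975 and 1920 in DBA (0.41, SE 0.11, edgeR adjusted p = 0.023). In a sum over cell types, more cells of a type and more RNA per cell cannot be told apart. Astrocytes, with Kcnd2 at 1876 CPM on average, made up 40.1% and 45.7% of non-neuronal nuclei in BL6 and 48.0% and 53.6% in DBA, and oligodendrocytes, with 96.0 CPM, 25.9% and 19.1% against 17.0% and 15.3%. Within NN-Astro, Kcnd2 measured 1761 and 1743 in BL6 and 2080 and 1918 in DBA, without overlap, and missed the threshold (0.33, SE 0.12, adjusted p = 0.080). Within NN-OPC the strains overlapped (0.18, adjusted p = 0.272). Within NN-ODC it was lower in DBA, at 131 and 106 against 64.3 and 82.5 (-0.56, adjusted p = 0.038), where summed excitatory markers stood at 43.0 and 29.2 against 15.4 and 30.9 CPM and inhibitory markers at 71.9 and 42.2 against 18.1 and 47.4, and their part was not tested. In NN-Endo-VLMC, where markers were mixed, it was higher in DBA, at 271 and 141 against 703 and 837 (2.14, adjusted p = 0.008). The call in the sum was lost without DBA library 2 or DBA library 3 and when libraries were scaled by total counts alone, that in NN-ODC without BL6 library 2 or DBA library 2, and that in NN-Endo-VLMC without BL6 library 3. With DESeq2 and with a replicate block the NN-ODC call was lost as well.

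Whether a strain difference itself differed between classes was tested with an interaction term over the class sums. None of the 37 members tested was called for inhibitory against excitatory nuclei, where edgeR's quasi-likelihood test called 0.0266% of genes, and 3 had an unadjusted p under 0.05: Kcnh8 (-0.80, SE 0.30), Kcna6 (-0.31, SE 0.13) and Kcnq5 (-0.24, SE 0.10), each with adjusted p = 1. None was called for non-neuronal against excitatory nuclei either, where 3.11% of genes were called and 7 members had an unadjusted p under 0.05. The smallest adjusted p there was 0.063, for Kcns3 (2.97, SE 0.80), followed by Kcna6 at 0.077 (-0.48, SE 0.14). Kcns3 was near the detection limit in excitatory nuclei, with 35 counts in all and 0.047 CPM in DBA library 3. No other tool was run on the interaction. Calls of Kcna1, Kcng2 and Kcnv2 in excitatory nuclei only, or of Kcnh8 and Kcns3 in inhibitory nuclei only, are therefore not shown to differ between these classes.

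Over the 20 cell types, 435 tests of members gave 30 calls (6.90%), against 12.8% of all tests and 7.27% of tests of genes counted in both strains, and 12 calls were higher and 18 lower in DBA. By type, edgeR called 5 of 33 members tested in Exc-Tafa1 (18.6% of genes tested), 5 of 34 in Exc-Vwa5b1 (20.5%), 1 of 32 in Exc-Abi3bp (16.3%), 3 of 27 in Inh-Sst (13.3%), 3 of 30 in Inh-Tshz1 (19.4%), 1 of 32 in Inh-Nxph2 (17.6%) and 1 of 18 in Inh-Htr3a (7.45%). Among non-neuronal types it called 3 of 27 in NN-Astro (16.9%), 3 of 17 in NN-OPC (12%), 1 of 16 in NN-ODC (11.9%), 1 of 12 in NN-MGC (8.49%) and 3 of 6 in NN-Endo-VLMC (7.57%). In the other 8 types edgeR called none: Exc-Ebf2 (6.23% of genes tested), Exc-Tfap2c (3.82%), Inh-Drd2 (4.4%), Inh-Lamp5 (4.9%), Inh-Lypd6b (5.95%), Inh-Zfhx3 (15.2%), NN-VLMC (2.71%) and Neuronal-Aldoa-Cst3 (2.27%). In these, 0 to 4 members a type had an unadjusted p under 0.05, and DESeq2 called none. The shares by type are of all genes tested. A share limited to genes counted in both strains, as the members are, is given only over all types together. Counting sums and types together, 23 of the 38 members were called nowhere.

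Kcnc2 was called in 5 types. It was lower in DBA in Exc-Tafa1, with 164 and 132 CPM in BL6 and 101 and 95.0 in DBA (-0.55, edgeR adjusted p = 0.017). It was lower in Inh-Htr3a, with 1015 and 1272 against 830 and 783 (-0.46, adjusted p = 0.048), and in Inh-Tshz1, with 486 and 488 against 407 and 385 (-0.26, adjusted p = 0.046). In Inh-Sst, where Kcnc2 was highest, the strains did not overlap either, at 1396 and 1513 against 1220 and 981, and the difference missed the threshold (-0.38, SE 0.14, adjusted p = 0.107). In NN-OPC it measured 74.6 and 83.4 against 52.8 and 49.8 (-0.55, adjusted p = 0.032), and in NN-Endo-VLMC 25 counts in all gave 18.1 and 0 against 71.9 and 98.0 (4.06, adjusted p = 0.037). The Inh-Htr3a, Inh-Tshz1, NN-OPC and NN-Endo-VLMC calls were lost with DESeq2. That in Inh-Tshz1 was also lost with RLE size factors, and that in NN-Endo-VLMC with a replicate block. The Exc-Tafa1 call was lost without BL6 library 2 or DBA library 3, the Inh-Htr3a and NN-OPC calls without BL6 library 3, DBA library 2 or DBA library 3, the Inh-Tshz1 call without BL6 library 2, BL6 library 3 or DBA library 3, and the NN-Endo-VLMC call without BL6 library 3, where the log2 fold change was 2.39. Without BL6 library 2 the 1 BL6 library left was at 0, and the fitted value of 6.76 is no measure of size.

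Kcnh7 was called in 3 non-neuronal types and in no neuronal one. In NN-Astro it measured 89.5 and 57.5 CPM in BL6 and 29.0 and 40.2 in DBA (-0.95, edgeR adjusted p = 0.007), and in NN-OPC 232 and 211 against 154 and 158 (-0.43, adjusted p = 0.015). In NN-Endo-VLMC it was higher in DBA, at 36.2 and 28.2 against 155 and 223 (2.68, adjusted p = 0.010). Neuronal markers moved in the same direction as Kcnh7 in part of these types: excitatory markers summed to 42.2 and 31.4 against 17.3 and 29.1 CPM in NN-Astro and to 28.9 and 25.7 against 16.2 and 21.1 in NN-OPC, and inhibitory markers to 18.1 and 28.2 against 77.5 and 143 in NN-Endo-VLMC. Inhibitory markers overlapped between strains in NN-Astro, at 84.4 and 49.2 against 40.2 and 56.9, and in NN-OPC. Each list had 6 genes, all of them counted in NN-Astro and NN-OPC, while Neurod6 was at 0 in NN-Endo-VLMC, and their part in these calls, and in those of Kcnc2 and Kcnd2 in the same types, was not tested. The NN-Astro call was lost without DBA library 2, the NN-OPC call without BL6 library 2 or DBA library 2, and the NN-Endo-VLMC call without BL6 library 3. With DESeq2 the NN-OPC and NN-Endo-VLMC calls were lost as well.

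Other calls in neuronal types were of genes with more RNA in DBA. Kcnh1, an EAG subunit, measured 122 and 95.8 against 139 and 171 CPM in Exc-Tafa1 (0.55) and 139 and 143 against 159 and 175 in Exc-Vwa5b1 (0.28). Kcna6 measured 30.6 and 27.5 against 36.5 and 48.3 in Exc-Tafa1 (0.59), and Kcnq5 338 and 382 against 509 and 440 in Exc-Vwa5b1 (0.43). The Kcnq5 call was lost without BL6 library 2, the Kcna6 call and the first Kcnh1 call without BL6 library 3 or DBA library 3, and the other Kcnh1 call without BL6 library 2, BL6 library 3 or DBA library 3. With DESeq2 the Kcna6 call and the Kcnh1 call in Exc-Vwa5b1 were lost. In glia, Kcnq3 was lower in DBA in NN-Astro, at 206 and 163 against 97.3 and 131 (-0.56), and Kcnq5 was lower in NN-MGC, at 73.7 and 104 against 49.0 and 27.7 (-1.12). Beside the Kcnq3 call, oligodendrocyte markers in NN-Astro summed to 212 and 178 CPM in BL6 and 65.3 and 71.5 in DBA, and beside the Kcnq5 call, excitatory markers in NN-MGC summed to 68.6 and 54.6 against 49.0 and 57.3, and the part of such RNA was not tested. These 2 glial calls were lost without BL6 library 2 or DBA library 2 (Kcnq3) and without BL6 library 3 or DBA library 3 (Kcnq5). The Kcnq5 call in NN-MGC was also lost with DESeq2.

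Auxiliary and clustering proteins of these channels were counted beside them. Of 19 such genes in the table, 17 had 10 or more counts in each strain, and the calls were 1 of 16 tested in all nuclei, 2 of 14 in excitatory, 1 of 14 in inhibitory and 3 of 15 in non-neuronal nuclei, against 9.15%, 12.8%, 11.9% and 11.1% of genes with 10 or more counts in each strain. These counts are small, and nothing particular to the list is read from them. Kcnip3, a calcium-binding partner of Kv4 channels also known as DREAM, was singled out after its values were seen: it was lower in DBA in all 4 sums, with 89.8 and 119 CPM in BL6 and 63.8 and 59.1 in DBA over all nuclei (-0.71, edgeR adjusted p = 0.006). The largest number of calls in 1 unit was 4, in NN-ODC, where 4 of 11 were lower (11.9% of all genes tested were called), and in NN-Endo-VLMC, where 4 of 6 were higher (7.57%). In NN-ODC, Kcnab1, a cytoplasmic beta subunit of Kv1 channels, measured 687 and 710 in BL6 and 238 and 158 in DBA (-1.67), without overlap. Cntnap2, which clusters Kv1 channels beside the node of Ranvier, measured 163 and 178 against 77.8 and 84.6 (-0.92), while Kcnip4 (-0.66) and Kcnip3 (-1.66) were the others. Excitatory and inhibitory markers in NN-ODC overlapped between the strains, with the values given beside Kcnd2.

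Of 39 other potassium channel genes (inward rectifier, leak and calcium- or sodium-activated), 37 had 10 or more counts in each strain, and 2 of 37 were called in all, 4 of 32 in excitatory, 3 of 34 in inhibitory and 4 of 32 in non-neuronal nuclei, against the same 9.15%, 12.8%, 11.9% and 11.1%. These shares are near the background. In non-neuronal nuclei, 1 of 4 units with 4 calls each, Kcnj3, a G-protein-gated inward rectifier, measured 79.1 and 65.4 CPM in BL6 and 106 and 122 in DBA (0.77). Kcnmb2, a beta subunit of BK channels, measured 10.6 and 6.28 against 20.9 and 17.1 (1.27), Kcnj14 0.88 and 0.54 against 2.85 and 3.71 (2.27), and Kcnk3, a leak channel, 4.32 and 5.09 against 1.63 and 2.06 (-1.23). The strains did not overlap for any of these 4.

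Accessibility at the members' genes was examined next, to see whether it varied with the RNA by cell type and by strain. RefSeq windows were found for 23 members, and 20 of these had an ATAC peak over the window, 21 peaks in all. Across the 15 types measured in both assays, the log2 RNA level and the log2 accessibility of the promoter peak were positively related for 18 of the 20 members, with a median Pearson correlation of 0.78 and a range of -0.57 to 0.89 (n = 15 types). The points share libraries and differ in depth, so these values are descriptions. NN-MGC, with 12 to 35 ATAC nuclei a library, was the least accessible type for most of these members. Its weight in the correlations was not tested, and no correlation over all genes was computed. Kcns3 gave 0.89 (rank correlation 0.66): its promoter peaks reached 31.8 ± 7.78 CPM in Inh-Lamp5 and 27.0 ± 4.53 in Inh-Sst, the same types as its RNA, and 6.45 in Exc-Vwa5b1. Kcnd2 gave 0.86 (rank correlation 0.87), with 42.4 ± 9.04 in NN-OPC and 38.3 ± 1.06 in Inh-Tshz1, which overlapped. Kcnh8 was on average highest in NN-OPC (46.6 ± 18.2), as in RNA, but here NN-OPC overlapped Inh-Tshz1 (34.1 ± 0.871). NN-OPC held 17 to 41 ATAC nuclei a library. Kcnh4 was highest in Inh-Drd2 (43.0 ± 7.87). Kcnh5 was highest in NN-OPC (56.9 ± 20.1) and Inh-Tshz1 (43.9 ± 0.905), the same 2 types in the reverse order, which overlapped. Kcnh6, at 0.435 to 4.12 CPM, gave -0.57.

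None of the 21 promoter peaks was called between the strains. Their log2 fold changes over all nuclei lay between -0.18 and 0.18, the smallest edgeR adjusted p was 0.383 in all, 0.423 in excitatory and 0.201 in inhibitory nuclei, and 0, 0 and 1 of them had an unadjusted p under 0.05. DESeq2 called none. At Kcnf1, whose RNA was lower in DBA, the promoter peak (chr12:17175229-17176901, mm10) measured 24.3 and 24.1 CPM in BL6 and 24.3 and 23.9 in DBA (0.04, adjusted p = 0.914). At Kcns3 the larger promoter peak measured 8.67 and 8.97 against 7.53 and 8.46 (-0.10, adjusted p = 0.743), and at Kcnh8 the peak measured 20.5 and 20.9 against 21.2 and 20.6 (0.06, adjusted p = 0.872). These peak values are over all nuclei, while the RNA of Kcns3 and of Kcnh8 was called lower in inhibitory nuclei. Over all nuclei the RNA of neither was called (Kcns3 -0.72, edgeR adjusted p = 0.141, and Kcnh8 -0.08, adjusted p = 0.760).

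Within 2 kb of either end of 37 members there were 82 peaks, and 6 were called in all nuclei (7.32%), against 6.44% of all peaks tested, 5 in excitatory (6.10%, against 4.93%) and 3 in inhibitory nuclei (3.66%, against 3.47%). The shares are near the background. A peak inside Kcnh6, an ERG subunit gene (chr11:106033368-106033984, mm10, centred 1919 bp inside the gene's upper coordinate), measured 5.92 and 5.22 CPM in BL6 and 1.01 and 0.887 in DBA over all nuclei (-2.50, SE 0.16, edgeR adjusted p = 2.5e-52), and -2.70 and -2.17 in excitatory and inhibitory nuclei. Its calls in all 3 sums were kept under every alternative run for peaks, while Kcnh6 RNA overlapped between the strains, at 5.91 and 3.71 against 3.70 and 4.84 (-0.14, adjusted p = 0.835). A peak outside Kcnh4 (chr11:100761346-100762276, centred 1696 bp beyond the gene's upper coordinate, with Hcrt also within 2 kb) measured 15.8 and 14.8 against 10.8 and 9.56 (-0.54, adjusted p = 9.4e-06), kept under every alternative run for peaks, while Kcnh4 RNA overlapped (0.14, adjusted p = 0.693).

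A peak 1716 bp beyond the lower coordinate of Kcnf1, on the side of the gene's 3′ end (chr12:17169896-17170872, mm10), was lower in DBA, as was its RNA. It measured 12.4 and 11.9 CPM in BL6 and 8.63 and 9.36 in DBA (-0.39, SE 0.10, edgeR adjusted p = 0.005), and -0.37 (adjusted p = 0.034) in excitatory and -0.25 (adjusted p = 0.456) in inhibitory nuclei. The call in all nuclei was lost without BL6 library 2 or BL6 library 3, that in excitatory nuclei also without DBA library 3, with DESeq2 and with a replicate block, and whether this peak acts on Kcnf1 was not tested. Peaks at Kcnh1 (chr1:192189079-192189366, 0.35), Kcng3 (chr17:83574499-83574879, -0.72) and, in excitatory nuclei, Kcna6 (chr6:126705800-126706569, 0.36) were called as well. Without BL6 library 2 the calls at Kcnh1 and Kcna6 were lost, without BL6 library 3 all 3, without DBA library 2 that at Kcnh1, and without DBA library 3 that at Kcng3. With DESeq2 all 3 were lost. The Kcnh4 call in excitatory nuclei (-0.52) was lost without BL6 library 2 or DBA library 3 and with DESeq2, and that in inhibitory nuclei (-0.58) without BL6 library 3.

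**Figure D5:**
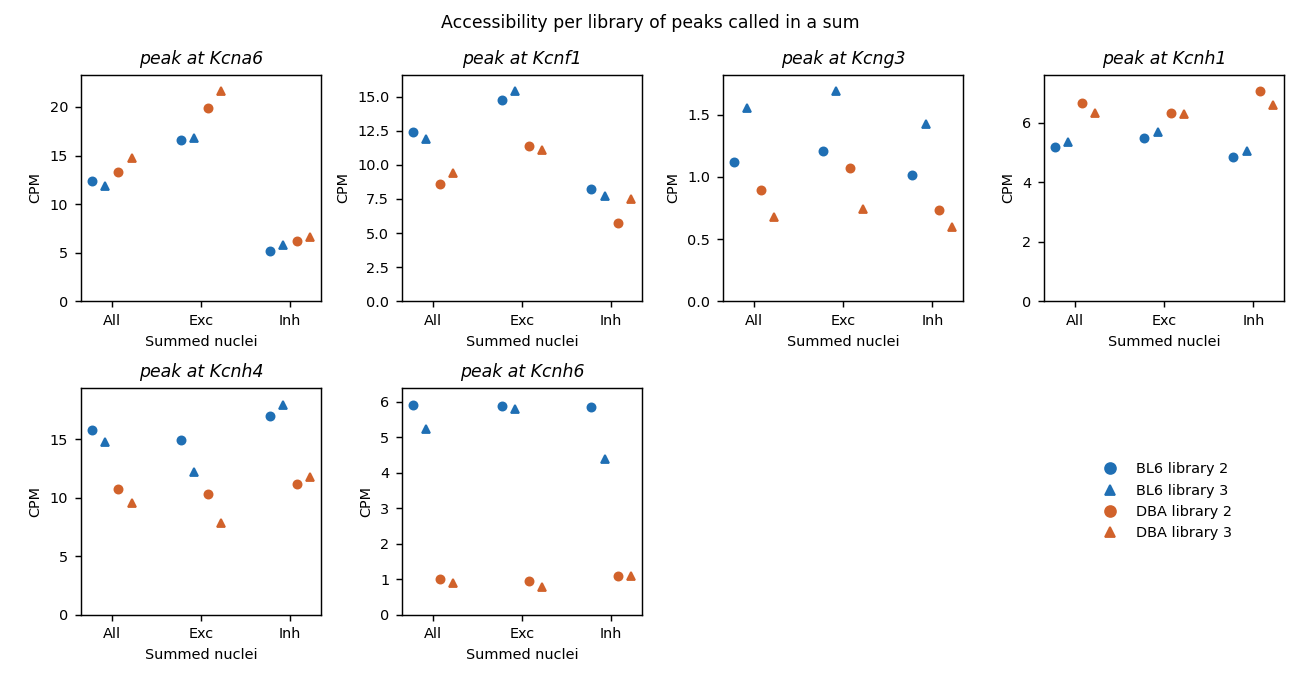
CPM per library (circles, library 2; triangles, library 3; blue, BL6; orange, DBA) of called peaks near Kcnf1, Kcnh4, Kcnh6, Kcnh1, Kcng3 and Kcna6, in all, excitatory and inhibitory nuclei. The DBA points at Kcnh6 (1.01 and 0.887 over all nuclei) lie far below the BL6 points (5.92 and 5.22), and the other peaks differ less.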

How the data were processed

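RNA and ATAC libraries of single nuclei from the amygdala of BL6 and DBA males were used, 2 per strain and assay, and grouped by the strain in the labels. The deposited values are counts per gene or per peak, added up by the authors for every combination of library and cell type, with the number of nuclei behind each as a further deposited count. Per the submitters' processing notes, the tools were Cell Ranger 6.0.2 with Seurat 4.0.5 (RNA) and Cell Ranger ATAC 2.0.0 (accessibility), and the build was mm10. Filters on nuclei, treatment of doublets, the annotation for each strain and the strandedness of counting are not given in the sources used here, so overlapping or antisense genes may share counts. Doublets were not sought, since counts are sums. Table numbers 2 and 3 and title numbers 1 and 2 of libraries could be matched by strain only.

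Cell types with 10 or more nuclei and 50000 or more RNA counts (100000 ATAC counts) in every column were tested, 20 of 22 for RNA and 16 for ATAC. Counts were also summed over all, excitatory, inhibitory and non-neuronal types. Strains were compared with edgeR 4.0.16 (filterByExpr, TMM, robust quasi-likelihood test) in R 4.3.3, with Benjamini-Hochberg adjustment over all features tested, and were called at adjusted p under 0.05. The interaction of strain and class was fitted over the 12 class sums with the library as a block. Alternatives were RLE size factors, total counts alone, no filter, only genes counted in both strains, DESeq2 1.42.0, a replicate block, each library left out and peaks within 10 kb. Crossed library numbers and leaving out NN-Endo-VLMC or Inh-Drd2 were chosen after seeing the data. On simulated data at real depths, with 200 changed features, edgeR recovered 62% of 2-fold and 91% of 4-fold changes in all, 64% and 98% in excitatory, 74% and 96% in inhibitory, and 59% and 94% in non-neuronal nuclei. Of its calls there, 13.6%, 6.36%, 9.57% and 11.6% were false, above the nominal 5%, against 14.6%, 2.61%, 3.33% and 2.86% with DESeq2. The 200 changed features were a smaller part of the genes than the 20.0% to 24.3% called in the real sums. These false shares therefore need not hold for the real calls.

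Members and lists were chosen with earlier results of these data known. Values per library and full statistics are given for members called in any of the 4 sums or in 3 or more types, and levels by type in detail for members whose highest type is 5 or more times their median type with at least 100 counts there; other members are given by their highest and lowest types, and further calls in single types were added after their values were seen. Other lists are counted, naming at most 4 genes in the unit with the most calls; where units tied, NN-ODC and the non-neuronal sum were picked after their values were seen. Counts are over all members, but the values of a few members, and of a marker, are not reported here. Sequences are from RefSeq.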

Additional observations from a re-analysis of the deposited data

Results flagged for a closer look

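Some subunits were called in opposite directions in different cell types. In each case every DBA library lay on one side of the BL6 libraries in 1 type and on the other side in another, and the difference between the types was not tested. Kcnc2 had a log2 fold change of DBA over BL6 of 4.06 in NN-Endo-VLMC, against -0.55 in Exc-Tafa1, -0.46 in Inh-Htr3a, -0.26 in Inh-Tshz1 and -0.55 in NN-OPC. Kcnd2 stood at 2.14 in NN-Endo-VLMC and at -0.56 in NN-ODC. Kcnh7 stood at 2.68 in NN-Endo-VLMC, against -0.95 in NN-Astro and -0.43 in NN-OPC. The 3 values above 2 come from the nuclei named NN-Endo-VLMC, with 10 to 35 nuclei a library and mixed markers, and each of these calls was lost without BL6 library 3, where Kcnc2 stood at 2.39. Kcnq5 stood at 0.43 in Exc-Vwa5b1 and at -1.12 in NN-MGC. Kcns3 stood at 1.43 in NN-Astro, against -1.77 in Inh-Nxph2 and -1.31 in Inh-Sst.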

How the results depend on the processing

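No call changed direction under any alternative run, and 8 of 54 calls of members and peaks were kept under every one run for them (Kcnf1 and Kcng2 in excitatory, Kcns3 in inhibitory nuclei and in Inh-Sst, the Kcnh4 peak in all nuclei and the Kcnh6 peak in 3 sums); the restriction to genes counted in both strains and the crossed numbers were run for RNA calls and not for peaks. Losses named call by call cover left-out libraries and DESeq2, and the other alternatives only in part. With 2 libraries per strain, leaving out 1 assumes that the lone library varies like the others. Of 2 members called in all nuclei, 1 was called with RLE size factors, 0 with genes counted in both strains, 1 with DESeq2 and 0 to 1 when a library was left out. Leaving out a library gave 2 to 7 calls against 4 in excitatory, 1 to 4 against 3 in inhibitory and 0 to 4 against 1 in non-neuronal nuclei, where total counts gave 2, no filter 3 and DESeq2 2. The 30 calls in single types became 18 with genes counted in both strains, 11 with DESeq2 and 21 to 27 when a library was left out. The interaction, with 0 calls, gave 1 with total counts, 1 with no filter and 0 to 5 when a library was left out. For peaks, DESeq2 called 3 of 6 in all and 1 of 5 in excitatory nuclei, total counts gave 5 against 3 in inhibitory nuclei, a 10 kb window gave 17, 13 and 8 calls in all, excitatory and inhibitory nuclei, and leaving out a library gave 2 to 7, 1 to 7 and 1 to 9. The cause of these shifts was not tested. Scaling by total counts alone moved the median of all genes by -0.11 in non-neuronal nuclei, -0.13 in NN-Astro and -0.15 in NN-ODC.

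Same-numbered RNA libraries deviated from their strain means with a correlation of -0.44 over all nuclei. It was -0.09 in excitatory, -0.01 in inhibitory and -0.13 in non-neuronal nuclei. No label says that a number marks a shared day or batch, and these values do not settle it. With the replicate block, 0 members were called in all nuclei and 3 peaks in excitatory nuclei, and 11 of 54 calls were lost. With the numbers crossed, 4 members were called in all and 3 in non-neuronal nuclei.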
